A study of Rattus norvegicus with 6 samples.

Results

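The 4 EGR genes Egr1, Egr2, Egr3 and Egr4 and the 2 NAB genes Nab1 and Nab2 were examined in superficial-layer cells of rat articular cartilage exposed to fluid shear. They were taken by their symbols, 6 of the 32161 genes in the deposited count table, and 5 of them had enough counts to be tested. The family was chosen by its values in this same contrast, where Egr1 and Egr2 were known to be among the furthest raised genes. The shear and static values of the 6 genes are therefore a description, given with their SE and without p-values.

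The study compared primary cells without flow, at 0 dyne/cm² (3 static libraries), with cells under flow at 20 dyne/cm² of shear stress (3 shear libraries). Fluid moving along a cell surface drags on it, and shear stress is that drag per area. No strain, age, sex, number of animals, duration of flow or time of lysis is given in the sources used here, and whether replicate libraries are separate cultures is not stated either, so their spread may be technical. Totals were 33342775 to 33979479 counts per library. Of 8 markers of the superficial zone and of cartilage, 7 were tested. Of these 57.1% were called (edgeR adjusted p under 0.05), where 18.5% of all tested genes were, 10.8% higher and 7.71% lower. The lubricin gene Prg4 stood at 18.8 CPM (counts per 1000000 of the scaled library total) in static libraries, and the cartilage collagen gene Col2a1 at 0.213 CPM, too low to be tested. The transcription factor gene Sox9 (log2 fold change 1.26), Abi3bp (0.41) and Prg4 (0.25) were higher under shear and the aggrecan gene Acan (-0.34) lower (edgeR adjusted p = 1.8e-10, 0.00033, 0.018 and 0.0065), while 3 markers were not called. Scaling by library totals alone ended the call of Prg4 (edgeR adjusted p = 0.062). So did omitting shear replicate 3 (0.071), static replicate 1 (0.055) or static replicate 3 (edgeR adjusted p = 0.096). The part of these shifts in the EGR and NAB values was not tested.

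EGR proteins are zinc-finger transcription factors that bind a GC-rich DNA site. Their genes belong to the immediate early class, transcribed within minutes of a growth factor, stretch or flow stimulus, when the kinase ERK phosphorylates ELK factors bound beside SRF at CArG boxes of the promoter. NAB1 and NAB2 bind EGR proteins and repress their target genes, in part through the chromatin remodeller CHD4 of the NuRD complex. In several cell types NAB2 is itself a target of EGR factors and so closes a feedback loop, while NAB1 is made more constantly.

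Transcripts of Egr1, Egr2 and Egr3 were higher under shear, those of Nab2 were lower, the groups of Nab1 overlapped, and Egr4 was at or near 0. Of the 5 tested members, 3 were called higher and 1 lower (edgeR adjusted p under 0.05), where 18.5% of all tested genes were called, 10.8% higher and 7.71% lower. In 4 of the 5 the groups did not overlap, which held for 32.7% of all tested genes. These counts come from the contrast by which the family was chosen. The direction of the call over all genes depended on the scaling. With TMM factors 1508 genes were higher and 1075 lower, with upper-quartile factors 1275 and 1364, and with library totals alone 1124 and 1730. The members kept their directions under each of these.

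**Figure D1:**
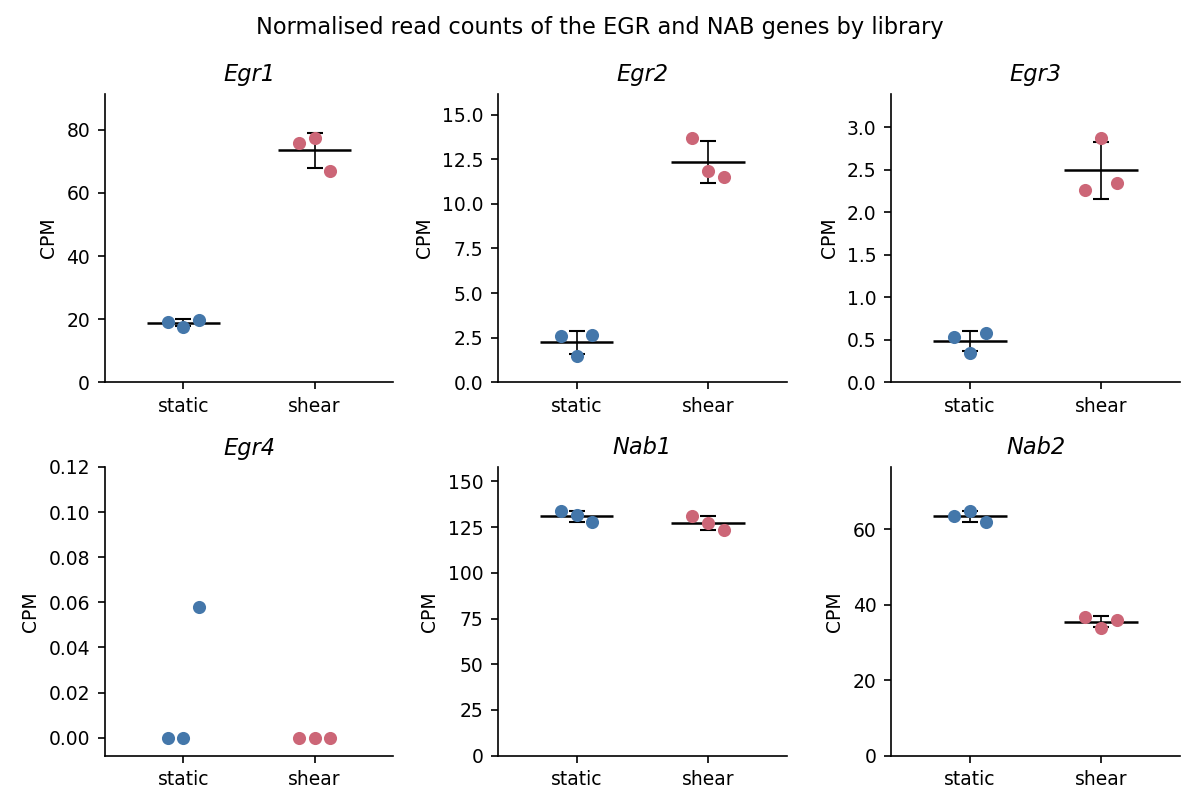
Normalised read counts in CPM (vertical axes, a separate scale per gene) of the 6 genes in the static and shear libraries. Points are libraries, horizontal lines are group means and error bars are SD (n = 3); for Egr4, whose counts were 0 in 5 libraries, only the points are shown. Egr1, Egr2 and Egr3 lay above the static range under shear and Nab2 below it.

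Egr1, the best studied member and a common readout of ERK signalling, was the most abundant EGR transcript. The gene lies on chromosome 18 from 27657628 to 27661429 on the plus strand in the coordinates of the count table, whose build is not given, with 2 exons. Static libraries held 19.2, 17.6 and 19.7 CPM and shear libraries 75.8, 77.6 and 67.1 CPM. Every shear library thus lay above every static one. The means were 18.8 ± 1.1 and 73.5 ± 5.6 CPM (n = 3 each, SD). The log2 fold change was 1.97 with an SE of 0.07, or 3.91-fold. Of the 13945 tested genes it had the 11th largest log2 fold change.

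Egr2, also called Krox20 and known for its part in myelination by Schwann cells and in hindbrain patterning, showed a larger ratio from a lower level. It lies on chromosome 20 from 22454463 to 22459025 on the minus strand, with 2 exons. The static values were 2.58, 1.48 and 2.66 CPM, and the shear values 13.7, 11.8 and 11.5 CPM. Static replicate 2 was the low library, with 51 counts against 88 and 92. The means were 2.24 ± 0.66 and 12.4 ± 1.2 CPM (n = 3 each, SD). The log2 fold change was 2.46 with an SE of 0.15, or 5.52-fold. Without static replicate 2 the log2 fold change was 2.24. Only 1 tested gene had a larger log2 fold change.

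Egr3, needed for muscle spindles and active in lymphocytes, followed at counts low enough to limit its precision. It lies on chromosome 15 from 51756736 to 51760715 on the plus strand, with 4 exon blocks. The 3 static libraries held 18, 12 and 20 counts and the 3 shear libraries 76, 94 and 78. In CPM these were 0.528, 0.347 and 0.577 in static and 2.26, 2.88 and 2.34 in shear libraries, with no overlap. The log2 fold change was 2.36 with an SE of 0.27, the 4th largest, and the SE was the widest of the tested members. Without static replicate 2, again the lowest static library, it was 2.17. Static replicate 2 was thus the lowest static library for Egr1, Egr2 and Egr3 alike.

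Egr4, a member best known from the nervous system and the testis, could not be compared. It lies on chromosome 4 from 117293620 to 117296082 on the minus strand. Static replicate 3 held 2 counts and the other 5 libraries 0. A count of 0 allows up to 3 counts, or 0.0868 to 0.0919 CPM in those libraries by counting error alone. At this depth Egr4 transcripts were therefore not detectable above that limit in either group.

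**Figure D2:**
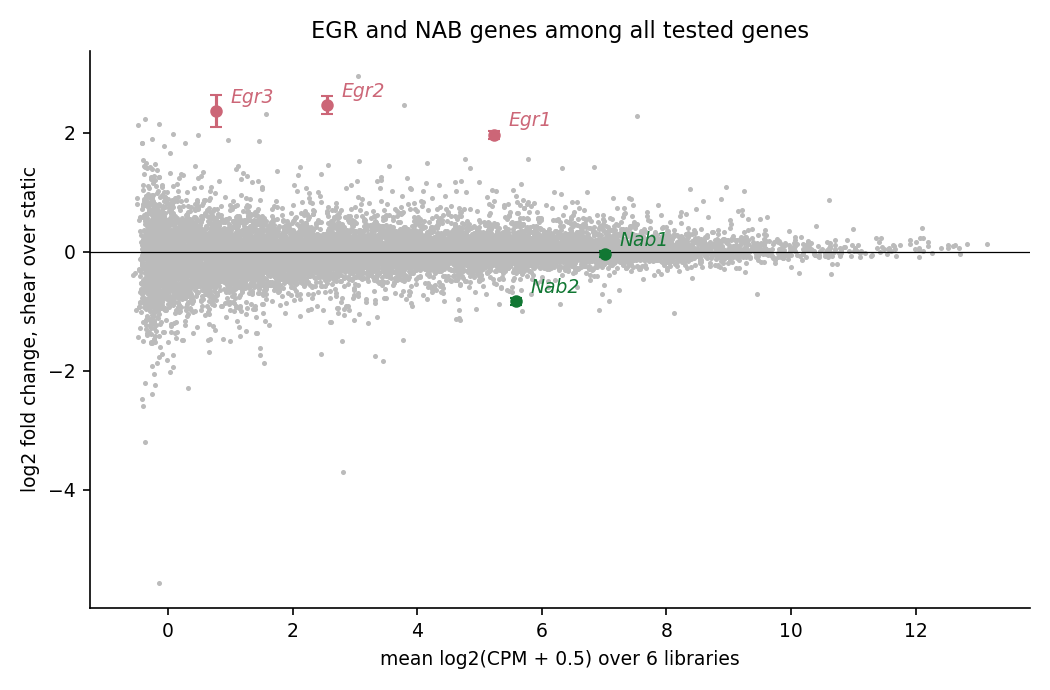
Log2 fold change of shear over static (vertical axis) against the mean log2(CPM + 0.5) over the 6 libraries (horizontal axis) for all 13945 tested genes, in grey. Error bars on the named members are SE; Egr1, Egr2 and Egr3 lie near the upper edge of the cloud at 3 different levels of abundance, and Nab2 near its lower edge.

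The promoters of Egr1 and Egr2 are printed because the CArG box is the element through which EGR genes are known to be induced. The 250 bases before the RefSeq transcript start (build GRCr8) run over chr18:26736828-26737077 on the plus strand for Egr1 and chr20:21054442-21054691 on the minus strand for Egr2. They read 5′ to 3′, and capitals mark CArG boxes (10 bases) and cores of the cAMP response element (CRE core, TGACG, here on the opposite strand as CGTCA).
Egr1: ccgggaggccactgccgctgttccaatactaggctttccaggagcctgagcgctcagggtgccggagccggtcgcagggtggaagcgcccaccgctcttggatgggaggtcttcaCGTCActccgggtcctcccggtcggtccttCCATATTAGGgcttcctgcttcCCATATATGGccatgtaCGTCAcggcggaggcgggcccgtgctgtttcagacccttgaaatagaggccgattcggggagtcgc
Egr2: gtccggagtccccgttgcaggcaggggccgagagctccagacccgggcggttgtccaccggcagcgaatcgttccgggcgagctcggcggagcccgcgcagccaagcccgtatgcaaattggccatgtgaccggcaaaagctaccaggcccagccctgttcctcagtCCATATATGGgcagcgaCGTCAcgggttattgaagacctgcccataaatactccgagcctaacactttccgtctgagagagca

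The Egr1 window held 2 CArG boxes, which began 105 and 83 bases before the start, and the Egr2 window held 1, which began 83 bases before it. The box at 83 bases had the same 10 letters in both genes. In both, a CRE core began 66 bases before the start, so that box and core were equally spaced. Of 27457 RefSeq promoter windows of this length, 1.5% held a CArG box on either strand, as did 2 of 15 windows of other immediate early genes listed below. The core is short and was found in 19% of all windows and in 9 of the same 15. It was added to the search after the sequences had been read. The whole CRE, TGACGTCA, of which it is a part, was in 1.7% of windows and in 5 of those 15, but in none of the 5 member windows read; Egr3 was not searched. The Egr4 window held 2 CRE cores and no exact CArG box. Only 10-letter matches of CC, then A or T alone, then GG were counted, and near matches were not. A match is a run of letters and not a measured binding site.

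Nab2 was the member that was lower under shear. The gene lies on chromosome 7 from 70961575 to 70969905 on the minus strand in the table's coordinates, with 7 exons. It stood at 63.6, 64.8 and 61.8 CPM in static and at 36.7, 33.8 and 36.0 CPM in shear libraries. Each shear value lay below every static one. The means were 63.4 ± 1.5 and 35.5 ± 1.5 CPM (n = 3 each, SD). The log2 fold change was -0.84 with an SE of 0.06, or 1.79-fold less. Ranked from the lowest log2 fold change, it stood at place 258 of the tested genes.

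The end of Nab2 overlaps a gene on the other strand. Exons of Stat6, which encodes a transcription factor of interleukin-4 signalling, cover 1603 bases or 30.2% of the Nab2 exon length, and these bases are 44.8% of the exon length of Stat6. Libraries were stranded, per the labels' protocols, but the strand setting of the counting is not given, so reads from the shared stretch cannot be assigned with certainty. Stat6 stood at 88.6, 95.3 and 88.7 CPM in static and 90.5, 83.5 and 91.9 CPM in shear libraries, ranges that overlap. Its log2 fold change was -0.04 with an SE of 0.05 (edgeR adjusted p = 0.71), and it turned to 0.003 without static replicate 2 and 0.007 without shear replicate 2. The part of this overlap in the Nab2 value was not tested. No exon of another gene in the table overlapped the other 5 members.

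Nab1 was the most abundant of the 6 transcripts and did not separate the groups. It lies on chromosome 9 from 53906073 to 53945473 on the plus strand, with 8 exons. Static libraries held 134, 131 and 128 CPM and shear libraries 131, 127 and 124 CPM. The ranges overlap. The log2 fold change was -0.04 with an SE of 0.05 and lay between -0.09 and -0.02 over all alternative settings.

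Promoters of the NAB genes are printed to show where the EGR recognition site occurs. Capitals mark the site in the forms GCGTGGGCG and GCGGGGGCG, on either strand, and CRE cores. The windows, again from RefSeq in build GRCr8, are chr9:56545392-56545641 on the plus strand for Nab1 and chr7:65389256-65389505 on the minus strand for Nab2.
Nab1: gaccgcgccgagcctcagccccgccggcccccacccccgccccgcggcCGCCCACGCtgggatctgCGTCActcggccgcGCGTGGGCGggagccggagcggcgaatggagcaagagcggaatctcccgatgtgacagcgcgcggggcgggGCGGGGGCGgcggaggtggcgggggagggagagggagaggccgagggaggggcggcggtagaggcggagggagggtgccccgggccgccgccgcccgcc
Nab2: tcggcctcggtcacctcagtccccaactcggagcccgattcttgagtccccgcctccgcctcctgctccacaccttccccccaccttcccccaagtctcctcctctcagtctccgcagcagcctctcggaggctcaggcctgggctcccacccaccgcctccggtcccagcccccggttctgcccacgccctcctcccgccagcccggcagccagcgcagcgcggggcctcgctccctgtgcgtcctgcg

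The Nab1 window held the T form of the EGR site at 202 and 170 bases before the start, the first on the opposite strand, and the G form at 99 bases. In all windows the T form occurred in 0.514% and the G form in 2.49%. G and C made up 81.2% of the Nab1 window and 72.4% of the Nab2 window, and these shares are not matched for that content. Neither form was in the windows of Nab2, Egr1, Egr2 and Egr4, and neither NAB window held an exact CArG box. For Nab2 this says only that these letters are not within the 250 bases read.

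**Figure D3:**
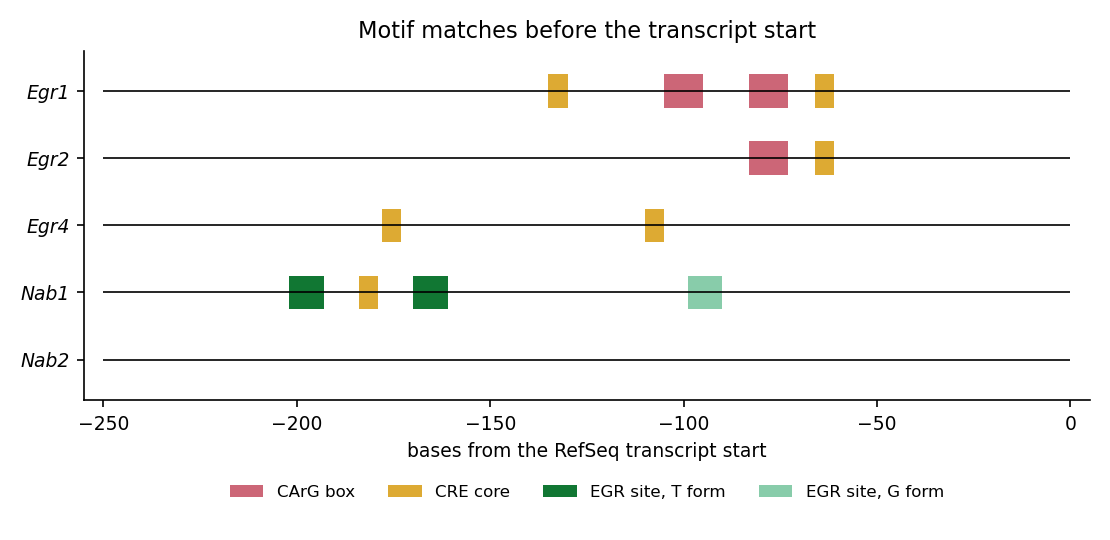
Motif matches in the 250 bases before the RefSeq transcript start (horizontal axis, bases from the start) of Egr1, Egr2, Egr4, Nab1 and Nab2; bars are drawn to the length of each match, on either strand. Egr1 and Egr2 share a CArG box and a CRE core at the same distances, Nab1 holds 3 EGR sites, and Nab2 holds none of the motifs.

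Levels of different genes were compared per length, as CPM per kilobase of exon. For Nab2 this length includes the 1603 bases shared with Stat6, where reads cannot be assigned with certainty. The same limit holds for the ratios and sums below that use Nab2. In static libraries the order was Nab1 (28.9 ± 0.7), Nab2 (11.9 ± 0.3), Egr1 (6.01 ± 0.34), Egr2 (0.692 ± 0.204) and Egr3 (0.179 ± 0.045; n = 3 each, SD), with Egr4 at or near 0. Under shear Egr1 stood at 23.5 ± 1.8 and passed Nab2 at 6.69 ± 0.29, while Nab1 stayed first at 28.1 ± 0.8. Egr2 followed at 3.82 ± 0.37 and Egr3 at 0.922 ± 0.124 (n = 3 each, SD). No neighbours in either order had overlapping ranges over the libraries. Egr1 exceeded 52.2% of all tested genes per length in static and 77.6% in shear libraries, and Nab2 65.8% and 54.0%.

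**Figure D4:**
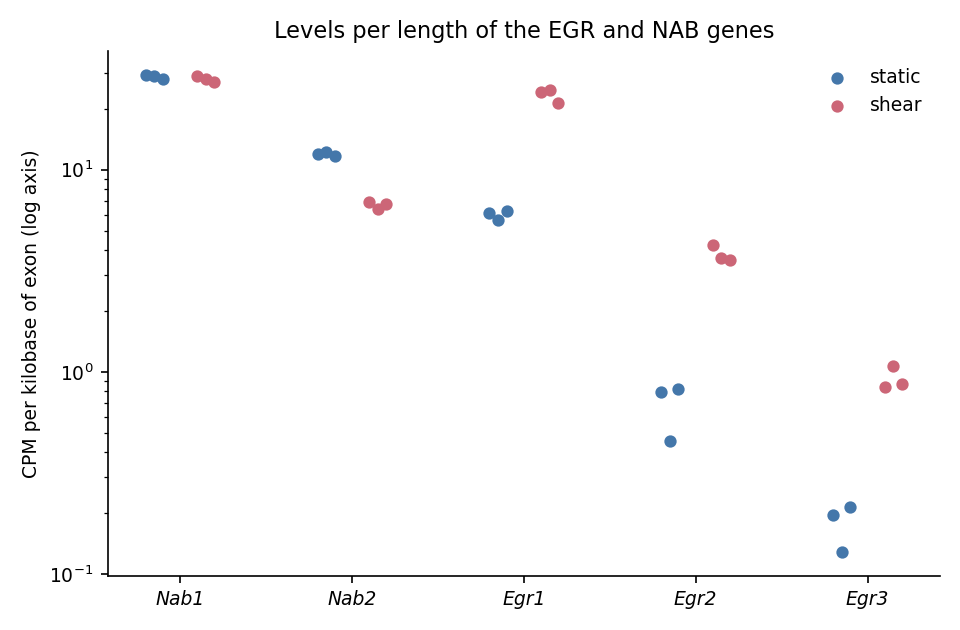
CPM per kilobase of exon (vertical log axis) for Nab1, Nab2, Egr1, Egr2 and Egr3; each point is a library, static and shear side by side. Egr4 is left out because a log axis cannot show 0; Egr1 lies below Nab2 in static libraries and above it in shear libraries.

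The balance between the factors and their corepressors differed at the transcript level. Per length, Egr1 transcripts were 0.511, 0.461 and 0.539 times those of Nab2 in static libraries and 3.50, 3.89 and 3.16 times in shear libraries. The sum of the 4 EGR genes was 0.169 ± 0.017 times the sum of both NAB genes in static and 0.811 ± 0.049 times in shear libraries (n = 3 each, SD). Nab2 made up 29.2% ± 0.4 of the NAB sum in static and 19.2% ± 0.7 in shear libraries. Within the EGR sum the make-up moved less. Egr1 supplied 85.5% to 90.6% of it in static and 82.7% to 84.0% in shear libraries, and Egr2 7.34% to 11.2% and 12.4% to 14.5%. The share of Egr3, 2.07% to 2.91% and 2.86% to 3.61%, overlapped between the groups.

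A list of 30 genes known in some mammalian cell as EGR targets was followed next. It was written with earlier results of these data known. Of 25 tested, 7 rose, 2 fell and 16 were not called, so 36.0% were called where 18.5% of all tested genes were. The list's median log2 fold change was 0.09 against -0.01 over all tested genes. Vegfa, the gene of the vascular growth factor, rose from 425 ± 3 to 861 ± 33 CPM (n = 3 each, SD), which is 1.02 on the log2 scale with an SE of 0.04 (edgeR adjusted p = 2.2e-14). Plau, the urokinase plasminogen activator gene, stood at 54.2, 54.0 and 61.3 CPM in static and 112, 104 and 114 CPM in shear libraries, a rise of 0.96 (edgeR adjusted p = 4.5e-12). F3, the tissue factor gene, rose by 0.70 and the VEGF receptor gene Flt1 by 0.51. Pdgfa, a platelet-derived growth factor gene and textbook EGR1 target, fell from 51.1 ± 0.6 to 42.0 ± 3.6 CPM (n = 3 each, SD), which is -0.28 on the log2 scale with an SE of 0.06 (edgeR adjusted p = 0.0015). Prx, the periaxin gene that EGR2 drives in Schwann cells, had a log2 fold change of -0.48 (edgeR adjusted p = 0.0017). Tgfb1, the gene of transforming growth factor beta 1, had one of -0.02 with an SE of 0.07 (edgeR adjusted p = 0.89), and of 0.05 without shear replicate 3. Upper-quartile factors and library totals alone each gave 6 higher and 4 lower.

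Subunits of the NuRD complex, through which NAB2 can act, differed by small amounts. Of 13 tested, 1 rose and 2 fell, and the share called, 23.1%, was near the 18.5% of all tested genes. The list's median log2 fold change was -0.02. Chd4, the remodeller that NAB2 binds, stood at 713 ± 23 CPM in static and 670 ± 3 CPM in shear libraries (n = 3 each, SD), which is -0.09 on the log2 scale with an SE of 0.04 (edgeR adjusted p = 0.17). With library totals alone it was called at -0.14 (edgeR adjusted p = 0.023). The methyl-DNA binding genes Mbd2 and Mbd3 had log2 fold changes of 0.14 and -0.16, and the histone-binding gene Rbbp7 one of -0.14 (edgeR adjusted p = 0.029, 0.028 and 0.049). All 3 calls ended on leaving out static replicate 1 (edgeR adjusted p = 0.071, 0.099 and 0.16), static replicate 2 (0.13, 0.19 and 0.26) or shear replicate 3 (0.077, 0.13 and 0.20). Without shear replicate 2 those of Mbd3 (0.095) and Rbbp7 (0.15) ended, and without shear replicate 1 that of Mbd2 (0.054). The call of Mbd2 also ended with upper-quartile factors (edgeR adjusted p = 0.080) and that of Rbbp7 with the size factors of DESeq2 (0.053). With library totals alone 0 were higher and 5 lower.

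Genes upstream of EGR transcription, 17 listed and 16 tested, went both ways. Of these 4 rose and 2 fell, so 37.5% were called against 18.5% of all tested genes. The list's median log2 fold change was 0.03. Srf, the factor that binds CArG boxes, had a log2 fold change of 0.05 with an SE of 0.06 (edgeR adjusted p = 0.60), and its partner gene Elk1 one of 0.10 with an SE of 0.09 (edgeR adjusted p = 0.49). The related ELK gene Elk3 rose from 67.7 ± 1.6 to 85.4 ± 2.8 CPM (n = 3 each, SD), which is 0.34 on the log2 scale with an SE of 0.05 (edgeR adjusted p = 2.3e-05). Rps6ka2, which encodes an RSK kinase, fell by 0.49 on the log2 scale (edgeR adjusted p = 0.00068). The calls of 3 other genes named here rested on single libraries. Elk4 (0.22) was not called on leaving out static replicate 1 (edgeR adjusted p = 0.10), static replicate 2 (0.056), shear replicate 2 (0.082) or shear replicate 3 (0.073). The MEK1 gene Map2k1 (0.17) was not called without static replicate 3 (edgeR adjusted p = 0.099) or shear replicate 1 (0.073), and the ERK5 gene Mapk7 (0.54) without static replicate 3 (0.088) or shear replicate 3 (0.057). Library totals alone left 2 higher and 2 lower, with Elk4 and Map2k1 lost.

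Other immediate early genes did not all follow the EGR genes. Of 23 tested, 12 rose, 5 fell and 6 were not called. The share called was 73.9%, against 18.5% of all tested genes. The list's median log2 fold change was 0.30. Junb and Fosb, subunits of the AP-1 factor, rose by 1.41 and 1.11, while their relative Fos stood at 5.36, 4.57 and 4.27 CPM in static and 5.33, 5.58 and 6.57 CPM in shear libraries. The ranges of Fos overlap, and its log2 fold change was 0.30 with an SE of 0.13 (edgeR adjusted p = 0.13). Atf3 (0.83), Myc (0.78) and the growth inhibitor gene Btg2 (0.74) rose. The dual-specificity phosphatase gene Dusp1 fell, with a log2 fold change of -0.91 with an SE of 0.09 (edgeR adjusted p = 2.3e-08). Each of these log2 fold changes was smaller than those of Egr1, Egr2 and Egr3. The split of 12 higher and 5 lower was the same with each of the other scalings.

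**Figure D5:**
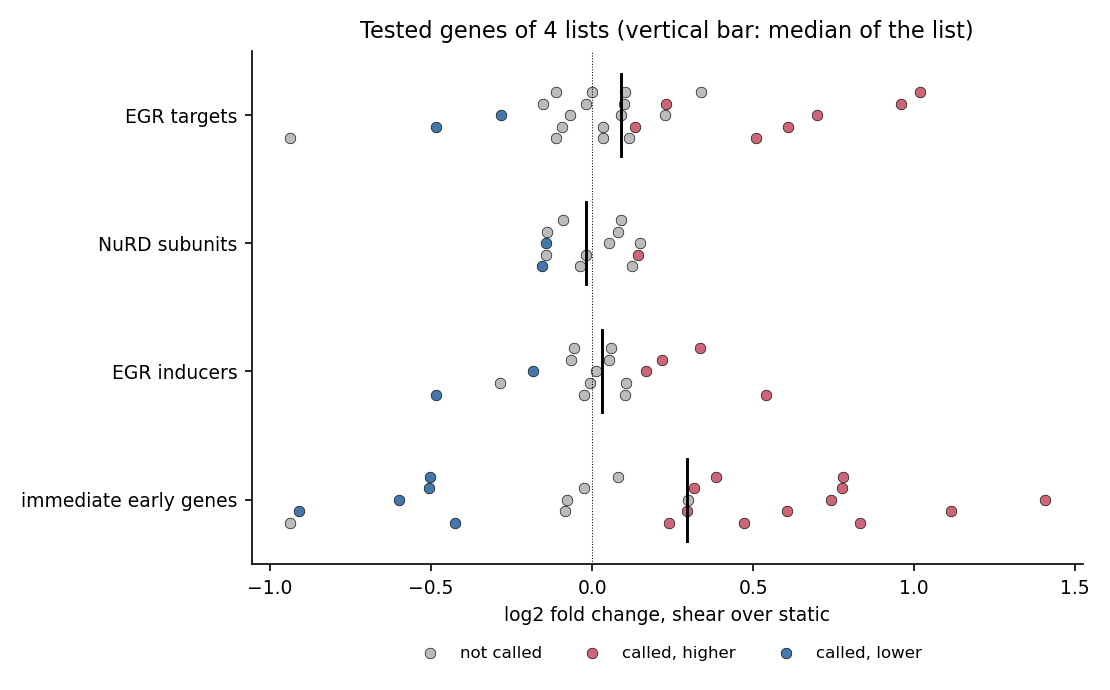
Log2 fold change of shear over static (horizontal axis) for the tested genes of 4 lists; each point is a gene, coloured by its edgeR call at an adjusted p under 0.05, and the vertical bar is the median of the list. Points are spread vertically within a list only to be visible; NuRD subunits lie close to 0 and immediate early genes reach from -0.94 to 1.41.

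Genes with a profile like that of Egr1 were sought by the root mean square difference of log2(CPM + 0.5), centred on each gene's mean, over the 6 libraries. Compared were 10222 tested genes with a mean of at least 1 on that scale. Genes with placeholder symbols (RGD, LOC, AABR, or AC followed by digits) were left out. The nearest was Msh5, at 0.13, which went from 1.05 ± 0.12 to 5.20 ± 0.32 CPM (n = 3 each, SD). Next came the protease inhibitor gene Tfpi2 (0.19), the G-protein regulator gene Rgs16 (0.22), the gliomedin gene Gldn (0.23) and the calcineurin regulator gene Rcan1 (0.24). With 6 libraries in 2 groups, this likeness is mostly a likeness in the size of the group difference on that scale. The added 0.5 CPM narrows this difference for genes of low CPM such as Msh5. Its fitted log2 fold change was 2.31, against 1.97 for Egr1.

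Markers of other cell types in which EGR genes are known to act were also summed, and some moved with the groups. All 7 Schwann cell markers together held 10.9 to 12.3 CPM in static and 8.42 to 9.61 CPM in shear libraries. Most of that was Prx and S100b, and Mag was at 0 in all libraries. The 7 macrophage markers summed to 3.50 to 4.37 and 2.16 to 2.85 CPM. Neither of the 2 tested was called, Cd68 at a log2 fold change of 0.19 and Csf1r at -0.505 (edgeR adjusted p = 0.78 and 0.12). Untested Lyz2 held 51, 12 and 6 counts in static and 4, 2 and 4 in shear libraries. The 6 T cell markers summed to 0.116 to 0.352 and 0.214 to 0.420 CPM, with Cd3d at 0 throughout. For the 5 endothelial markers matched, the sums were 9.85 to 11.8 and 5.24 to 9.22 CPM, and the defining marker Cdh5 stood at 0.0192 and 0.0404 CPM. Of the 3 tested, only Kdr fell (log2 fold change -0.98, edgeR adjusted p = 4.5e-05), so 33.3% were called against 18.5% of all tested genes. Tek (-0.07) and Vwf (-0.21) were not called (edgeR adjusted p = 0.86 and 0.78). The 7 skeletal muscle markers summed to 35.4 to 37.6 and 8.36 to 9.47 CPM. Of these 5 were tested and all 5 fell, where 7.71% of all tested genes were called lower. Myh3, an embryonic myosin heavy chain gene, stood at 21.9 ± 0.1 CPM in static libraries, above Egr1 and Prg4 there, and at 1.68 ± 0.11 CPM in shear libraries (n = 3 each, SD), a log2 fold change of -3.71 (edgeR adjusted p = 1.1e-17). The muscle regulators Myod1 and Myog were at or near 0. The part of these cell types in the EGR and NAB values was not tested, and in bulk RNA fewer cells of a type and less RNA per cell cannot be told apart.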

How the data were processed

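RNA was measured in 6 libraries, 3 static and 3 shear, grouped by their titles. The authors deposited whole-number counts per gene and library in 1 table laid out as featureCounts writes it, with exon positions and summed exon length, per the file headers. Tools named in the submitters' processing notes were Trimmomatic 0.36, edgeR 3.12.1 and featureCounts with Subread 1.5.1. Not given in the sources used here are the aligner, genome build, annotation, strand setting and counting of read pairs. Even numbers made up 71.4% to 72.2% of the counts from 1 to 20 but 51.1% to 52.3% of those over 200, so both reads of a pair may have been counted, and counting error alone would be too narrow.

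From these counts, genes were filtered with filterByExpr (minimum count 10), scaled with TMM factors (0.979 to 1.03) and tested two-sided by the quasi-likelihood method of edgeR 4.0.16 in R 4.3.3 with the group as the only term. The p-values of all 13945 genes that passed the filter were adjusted by Benjamini and Hochberg's method, and a gene under 0.05 is said to be called. The SE of a log2 fold change is its size over the square root of the F statistic. CPM are counts per 1000000 of the TMM-scaled total, and levels per length divide CPM by the kilobases of summed exon length. The test was checked on simulated counts. Recovery of changed genes fell just short of the first pass mark at the smaller simulated decrease, and the mark was lowered after that was seen. Promoter sequences came from RefSeq (GRCr8).

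The members and lists were chosen with earlier results of these data known. Named besides the members were the called genes of each list (the 6 furthest changed where more than 6 were called, mean log2 CPM at least 1), F3, Pdgfa, Tgfb1, Srf, Elk1, Chd4, Fos and Fosb, a gene overlapping a member's exons, and the 5 genes nearest to Egr1 in profile. Marker genes were named after their values were seen. Some listed genes are counted but not reported here by name. Alternatives were 3 other scalings, no low-count filter, DESeq2 1.42.0, limma-voom (limma 3.58.1), the replicate number as a block, halved counts, and each library left out in turn.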

Additional observations from a re-analysis of the deposited data

How the results depend on the processing

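Over the 14 alternatives the log2 fold changes of the 5 tested members kept their direction and their side of the threshold: Egr1 from 1.92 to 2.03, Egr2 from 2.24 to 2.61, Egr3 from 2.17 to 2.50, Nab2 from -0.89 to -0.80, and Nab1, never called, from -0.09 to -0.02. The count over all genes stayed within 1.5 times the 2583 reported, and the order of levels was the same without division by length. Called NuRD subunits numbered 5 with library totals alone, and from 0 to 3 with a library left out. Called genes upstream of EGR numbered 3 to 5 with a library left out. Leaving out a library moved Stat6 between -0.061 and 0.0070 and Tgfb1 between -0.10 and 0.049. The causes were not tested. Same-numbered libraries did not deviate together (correlations -0.02, -0.04 and 0.01), and not every library correlated best with its own number. Correlations this small cannot decide whether the numbers pair the libraries, and no pairing is stated in the sources used here. With the replicate block 2336 genes, 4 members and 1 NuRD subunit were called. Low counts limit Egr3, and Egr4 most of all.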
